A study of Mus musculus with 12 samples.

Results

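The 10 genes described here mark the cells of brain blood vessels: Cldn5, Pecam1, Cdh5, Tek, Flt1, Kdr, Slco1a4 and Abcb1a for endothelial cells, Pdgfrb and Rgs5 for pericytes. They were chosen by name, with earlier results of these data known, and are 10 of the 33391 genes and unnamed transcripts read by the arrays. Total RNA of 6 regions of the brain was measured in IL-18-/- mice (called KO), which lack the cytokine interleukin 18 of the interleukin 1 family, and in wild-type mice (WT). All mice were C57BL/6 males of 12 weeks, F2 littermates from a cross of IL-18-/- males with C57BL/6J females, killed under diethyl ether and perfused through the heart with cold saline. Each of the 12 arrays held 1 pool of RNA from 5 mice, so every region had 1 WT and 1 KO array. Because the tissue was whole, fewer vessel cells and less RNA per vessel cell cannot be told apart. Whether the same mice gave the pools of several regions is not stated, and the slice of the prefrontal cortex is placed 2.5 to 3.5 mm anterior to bregma in the study's design text and posterior to it in the sample protocols.

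As background, brain endothelial cells line the vessels and form the blood-brain barrier. They seal the gaps between them with claudin and cadherin junctions, and they carry nutrients in and drugs out with membrane transporters. Vascular endothelial growth factor and angiopoietin act on them through receptor tyrosine kinases, and platelet-derived growth factor from the endothelium holds pericytes to the vessel wall. Wnt ligands from neural cells keep the barrier programme of the endothelium in place.

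Signal was detected well above background on all 12 arrays for the main probe of all 10 genes, so endothelial and pericyte transcripts were present on every array. Each level is the log2 signal relative to the 75th percentile of its own array, and levels of different genes are not compared because probes differ in brightness. The 75th percentile lay at 208.3 and 271.8 signal units on the striatum arrays and between 502.3 and 767.9 on the others. Il18 was lower on the KO array in 6 of 6 regions, by log2 differences of -5.10 to -3.73. The array labelled amygdala WT stood apart from its label. Over 19309 genes its median absolute log2 difference from the hypothalamus WT array was 0.0933, against 0.0931 between the 2 hypothalamus arrays and 0.237 from the array labelled amygdala KO. The summed linear level of 8 hypothalamic markers was 209 on it, 182 and 215 on the hypothalamus arrays and 15.2 on the array labelled amygdala KO. Results on the amygdala are therefore given with and without that array. The 2 arrays of a region shared a slide, and each slide held 1 region, so slide and region cannot be told apart. The arrays of the prefrontal cortex and hippocampus were scanned on 1 day and all others on another. Differences between these 2 sets of regions therefore cannot be told apart from the scan day. WT arrays took the same slide position throughout and KO arrays another, so position and genotype cannot be told apart either.

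The upstream sequence is shown for the 3 genes for which it lay outside the gene's span. Cldn5, encoding the main tight-junction claudin of brain endothelium, and Abcb1a, encoding the drug efflux pump P-glycoprotein, were highest in the olfactory bulb. Rgs5, a pericyte regulator of G protein signalling, was lowest in the striatum. The 250 bases before a start site were taken from RefSeq (GRCm38.p6), which listed 7 of the 10 genes with 1 start site each. For these 3 genes they lie outside the gene's span. For the other 4 (Tek, Flt1, Kdr and Slco1a4) the listed start lies within the span, the 250 bases reach into it, and no sequence is shown. The stretches lie at chr16:18776597-18776846, chr5:8566841-8567090 and chr1:169655251-169655500, all on the plus strand, and capitals mark matches, on either strand, to the ETS core GGAAG, the GC box GGGCGG and the TATA box TATAAA.
Cldn5: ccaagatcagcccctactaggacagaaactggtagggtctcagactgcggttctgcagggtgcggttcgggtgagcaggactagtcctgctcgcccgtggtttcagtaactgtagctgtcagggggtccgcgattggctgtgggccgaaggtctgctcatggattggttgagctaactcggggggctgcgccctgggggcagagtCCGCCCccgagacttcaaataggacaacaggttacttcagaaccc
Abcb1a: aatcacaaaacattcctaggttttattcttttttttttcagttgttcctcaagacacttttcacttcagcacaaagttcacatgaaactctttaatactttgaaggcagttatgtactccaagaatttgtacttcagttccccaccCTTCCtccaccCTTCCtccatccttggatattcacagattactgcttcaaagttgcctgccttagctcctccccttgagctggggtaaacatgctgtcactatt
Rgs5: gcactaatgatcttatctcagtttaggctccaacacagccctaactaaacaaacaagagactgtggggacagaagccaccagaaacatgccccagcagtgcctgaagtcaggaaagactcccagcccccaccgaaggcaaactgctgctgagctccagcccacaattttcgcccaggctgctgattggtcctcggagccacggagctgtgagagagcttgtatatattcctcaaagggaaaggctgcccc
The Cldn5 sequence held 1 GC box at a G and C content of 59.6%. Abcb1a held 2 ETS cores at 40.4%, and Rgs5 held 0 matches at 53.6%. No match overlapped another. Among all 32851 sequences of that length before a listed start, 64.1% held the ETS core, 32.7% the GC box and 12.4% the TATA box. Of the 7 listed genes, 4 held the ETS core (Flt1, Kdr, Slco1a4 and Abcb1a), 3 the GC box and 1 the TATA box. A match is a description of the letters and no sign of binding.

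The striatum held the highest level of most of the 10 genes. Compared with the mean of the other 5 regions, 7 of the 10 rose (Cdh5, Flt1, Pdgfrb, Pecam1, Kdr, Slco1a4 and Cldn5), Rgs5 fell, and Tek and Abcb1a did not pass the test. The rises ran from 1.29-fold for Cldn5 to 2.32-fold for Cdh5. The amygdala and hypothalamus held the lowest levels: 8 and 6 of the 10 genes fell there. In the olfactory bulb 3 rose and 1 fell, in the prefrontal cortex 4 rose, and in the hippocampus 1 fell. The test was limma on all 12 arrays with region and genotype as terms and Benjamini-Hochberg adjustment over 24863 genes, called at an adjusted p under 0.05. Regions differed in a large share of all genes, so counts are read against that background. In the striatum 37.1% of all genes were called higher and 28.9% lower. In the amygdala 31.8% were called lower and in the hypothalamus 17.9%. In the olfactory bulb 25.1% were called higher and 26.5% lower, in the prefrontal cortex 19.4% higher, and in the hippocampus 12.7% lower. The counts of the 10 genes in the olfactory bulb and hippocampus lay near or below these shares.

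**Figure D1:**
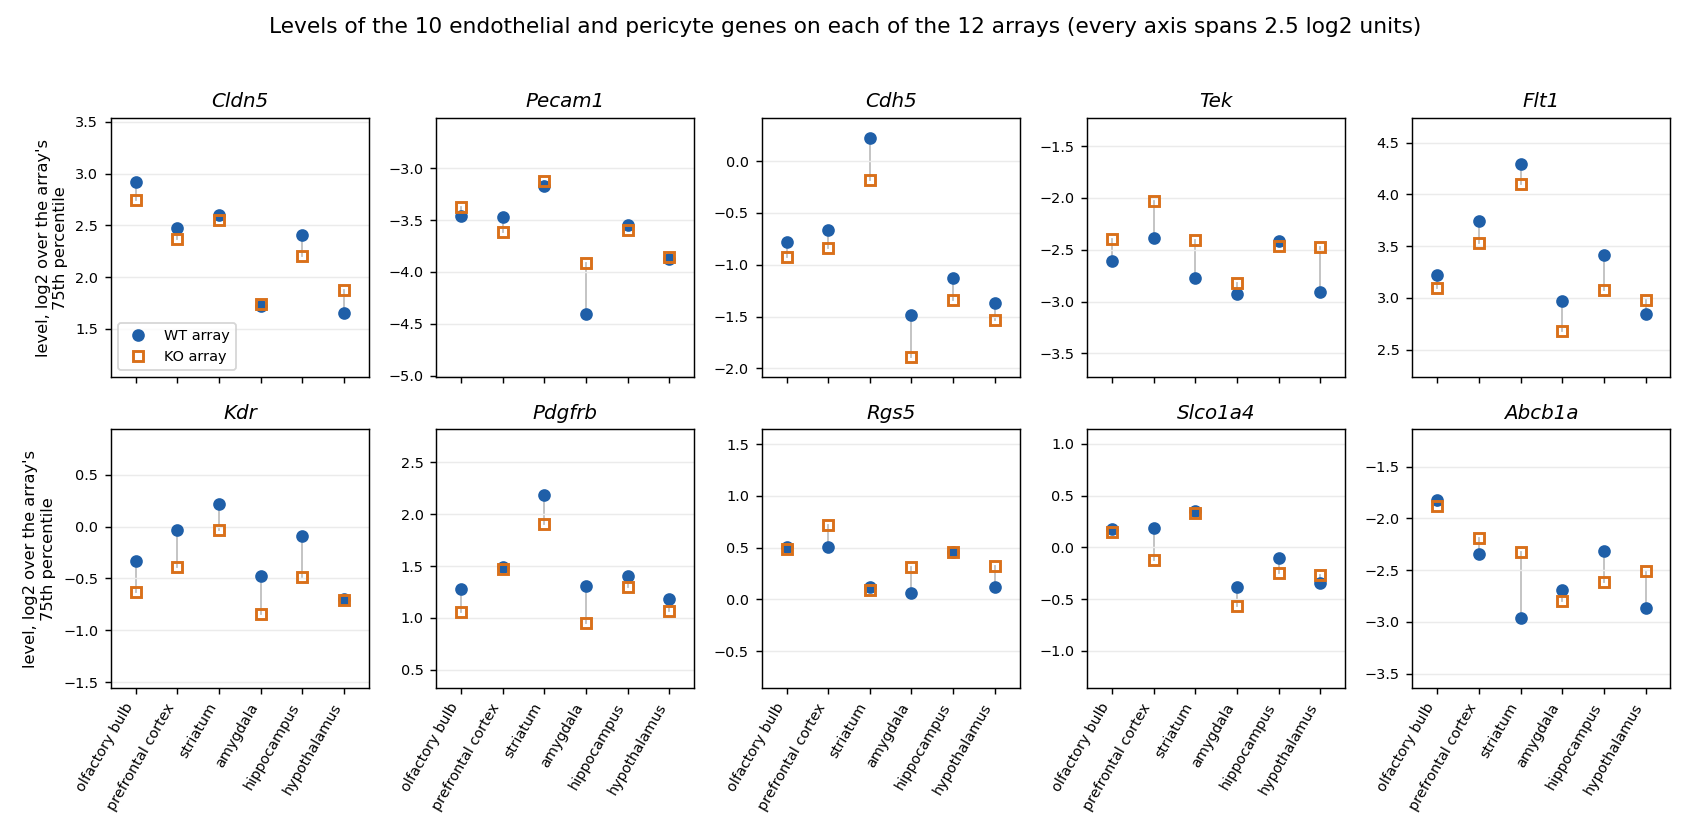
Level of each of the 10 genes (y axis, log2 over the array's 75th percentile) in the 6 regions (x axis), with a filled circle for the WT array and an open square for the KO array of each region. Flt1, Pdgfrb and Cdh5 stand highest in the striatum in both genotypes, while Rgs5 on both striatum arrays lies at 0.12 and 0.09, near its lowest level.

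Of the junction and adhesion genes, Cdh5, encoding VE-cadherin of the endothelial adherens junction (chromosome 8, 104101613 to 104144504, GRCm38.p6), showed the largest regional difference. Its level was 0.22 on the WT and -0.18 on the KO array of the striatum, -0.66 and -0.84 in the prefrontal cortex, and -0.78 and -0.93 in the olfactory bulb. It was -1.13 and -1.34 in the hippocampus, -1.37 and -1.53 in the hypothalamus, and -1.49 and -1.89 in the amygdala. Both striatum arrays stood above all 10 others, and neighbouring regions overlapped only between the prefrontal cortex and olfactory bulb and between the hypothalamus and amygdala. The striatum exceeded the mean of the other 5 regions by 1.21 on the log2 scale (SE 0.0776, n = 2 arrays, limma adjusted p 2.64e-05). The amygdala lay below its counterpart mean by a log2 difference of -0.83 (SE 0.0776, limma adjusted p 0.000897), and by -0.92 without the array labelled amygdala WT (limma adjusted p 0.0051). A second, dimmer Cdh5 probe, above background on 11 of 12 arrays, disagreed with the first: their correlation over the 12 arrays was 0.549, and its striatal difference was 0.12. With both probes averaged the striatal difference was 0.67 (limma adjusted p 0.00018). Cdh5 was also higher in the prefrontal cortex, by 0.29 (limma adjusted p 0.0279), a call lost with both probes averaged (0.20, adjusted p 0.0716), with dim probes kept (adjusted p 0.05), and without the amygdala (0.13), the hippocampus (0.24) or the hypothalamus (0.19). In the hypothalamus it was lower (-0.55, SE 0.0776, limma adjusted p 0.0039).

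Cldn5 (chromosome 16, 18776847 to 18778262) followed another order. Its level was 2.92 on the WT and 2.75 on the KO array of the olfactory bulb, 2.60 and 2.55 in the striatum, and 2.47 and 2.37 in the prefrontal cortex. In the hippocampus it was 2.41 and 2.20, in the hypothalamus 1.65 and 1.88, and in the amygdala 1.72 and 1.74. The olfactory bulb therefore stood above all other arrays and the arrays of the hypothalamus and amygdala below all others. Relative to the other regions, Cldn5 was higher in the olfactory bulb by 0.67 (SE 0.0915, limma adjusted p 0.00102) and in the striatum by 0.37 (SE 0.0915, limma adjusted p 0.0101). The striatal call was lost when arrays were centred on their median in place of the 75th percentile, called median scaling below (0.24, limma adjusted p 0.105), with background re-estimated by normexp (0.20, adjusted p 0.0585) and without the amygdala (0.25, adjusted p 0.0624). In the amygdala and hypothalamus it was lower, with log2 differences of -0.65 (SE 0.0915, limma adjusted p 0.00239) and -0.61 (SE 0.0915, limma adjusted p 0.00472). The amygdalar difference was -0.60 without the array labelled amygdala WT (limma adjusted p 0.0186).

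Pecam1, encoding the adhesion molecule CD31 at endothelial contacts (chromosome 11, 106654213 to 106715281), was highest in the striatum and lowest in the amygdala. It read -3.17 and -3.12 in the striatum (WT, then KO), -3.46 and -3.37 in the olfactory bulb, -3.47 and -3.61 in the prefrontal cortex and -3.55 and -3.59 in the hippocampus. The hypothalamus arrays were at -3.87 and -3.86 and the amygdala arrays at -4.41 and -3.91. The striatum arrays did not overlap those of any other region. The striatal difference was 0.57 (SE 0.115, limma adjusted p 0.00394). The amygdala differed by -0.65 (SE 0.115, limma adjusted p 0.00483), and by -0.40 without the array labelled amygdala WT (limma adjusted p 0.0211), which held the lowest Pecam1 level of all 12. The call was lost under median scaling (-0.38, adjusted p 0.0641) and quantile normalization (-0.27, adjusted p 0.156). The hypothalamic difference of -0.30 did not pass the test (adjusted p 0.0896).

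Of the growth factor receptors, Flt1 and Kdr rose in the striatum and Tek did not pass the test there. Flt1, encoding the receptor VEGFR1 (chromosome 5, 147561604 to 147726438), read 4.29 on the WT and 4.10 on the KO array of the striatum, 3.74 and 3.53 in the prefrontal cortex and 3.41 and 3.08 in the hippocampus. It read 3.22 and 3.10 in the olfactory bulb, 2.97 and 2.68 in the amygdala, and 2.84 and 2.98 in the hypothalamus. The arrays of the striatum stood above all others, followed by those of the prefrontal cortex. The striatal excess was 1.04 (SE 0.0954, limma adjusted p 0.000102), a 2.06-fold difference, and a second Flt1 probe gave 1.16 with a correlation of 0.99 between the probes over the 12 arrays. Flt1 also rose in the prefrontal cortex, by 0.37 (limma adjusted p 0.0247), though that call was lost under quantile normalization (0.22, adjusted p 0.113) and without the olfactory bulb (0.34, adjusted p 0.0697) or the amygdala (0.26, adjusted p 0.0778). It fell in the amygdala (log2 difference -0.61, limma adjusted p 0.00339) and in the hypothalamus (-0.50, limma adjusted p 0.0103), the latter not past the threshold without the striatum (-0.30, adjusted p 0.083). The amygdalar difference was -0.68 without the array labelled amygdala WT (limma adjusted p 0.0144).

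Kdr, encoding VEGFR2, the main signalling receptor for vascular endothelial growth factor (chromosome 5, 75932827 to 75979072), spanned a narrower range. The WT and KO arrays read 0.22 and -0.036 in the striatum, -0.031 and -0.39 in the prefrontal cortex, and -0.086 and -0.49 in the hippocampus. They read -0.33 and -0.63 in the olfactory bulb, -0.48 and -0.84 in the amygdala, and -0.70 and -0.71 in the hypothalamus. Every pair of neighbouring regions overlapped in this order, and the WT array was above the KO array in each region. With genotype in the model, the striatum was higher by 0.56 (SE 0.0854, limma adjusted p 0.00102). The hypothalamus was lower (-0.40, limma adjusted p 0.0152) and the amygdala as well (-0.34, limma adjusted p 0.0171). Under median scaling these were -0.32 (adjusted p 0.0588) and -0.069 (adjusted p 0.594), and without the striatum -0.30 (adjusted p 0.0644) and -0.24 (adjusted p 0.0851). The amygdalar difference was -0.39 without the array labelled amygdala WT (limma adjusted p 0.0482).

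Tek, encoding the angiopoietin receptor Tie2 (chromosome 4, 94739086 to 94874976), had its highest mean level in the prefrontal cortex, an order that changed with the background correction. It read -2.39 and -2.03 in the prefrontal cortex, -2.42 and -2.46 in the hippocampus, and -2.61 and -2.40 in the olfactory bulb. In the striatum it read -2.77 and -2.41, in the hypothalamus -2.91 and -2.47, and in the amygdala -2.93 and -2.82. Below the prefrontal cortex, each region overlapped its neighbour in this order. The prefrontal difference was 0.41 (SE 0.102, limma adjusted p 0.022), the amygdalar one -0.39 (SE 0.102, limma adjusted p 0.02), and the striatal one -0.043 (adjusted p 0.727). The amygdalar call was lost under median scaling (-0.12, adjusted p 0.424), quantile normalization (-0.11, adjusted p 0.425) and without the prefrontal cortex (-0.32, adjusted p 0.0514), and the prefrontal one under normexp (0.23, adjusted p 0.0522). With normexp the striatal difference turned to 0.51 (limma adjusted p 0.000327), above the prefrontal one. The amygdalar difference was -0.47 without the array labelled amygdala WT (limma adjusted p 0.0459).

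Of the pericyte genes, Pdgfrb, encoding the platelet-derived growth factor receptor that pericytes need to reach the vessel, followed Flt1 and Kdr. Its correlations with them over the 12 arrays were 0.945 and 0.9, against 0.0996 with Tek. Pdgfrb read 2.19 and 1.91 in the striatum, 1.49 and 1.47 in the prefrontal cortex, and 1.40 and 1.30 in the hippocampus. It read 1.28 and 1.06 in the olfactory bulb, 1.31 and 0.95 in the amygdala, and 1.18 and 1.07 in the hypothalamus. The striatum arrays stood above all others and the last 3 regions overlapped each other. The striatal excess was 0.80 (SE 0.0808, limma adjusted p 0.000158), a 1.74-fold difference. Lower values were called in the hypothalamus (-0.31, limma adjusted p 0.0289), the amygdala (-0.30, limma adjusted p 0.0214) and the olfactory bulb (-0.26, limma adjusted p 0.0335). Those 3 calls were lost when the striatum was left out, at -0.16, -0.15 and -0.10, and under median scaling the hypothalamic and amygdalar ones, at -0.23 and -0.031. Under quantile normalization the olfactory bulb difference was -0.13 (adjusted p 0.228). The amygdalar difference was -0.41 without the array labelled amygdala WT (limma adjusted p 0.0246).

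Rgs5, expressed in pericytes where it speeds the shut-off of G protein signals (chromosome 1, 169655501 to 169695813), ran the other way in the striatum. Its level was 0.51 on the WT and 0.72 on the KO array of the prefrontal cortex, 0.51 and 0.49 in the olfactory bulb and 0.46 and 0.46 in the hippocampus. It was 0.12 and 0.32 in the hypothalamus, 0.066 and 0.31 in the amygdala, and 0.12 and 0.09 in the striatum. The arrays of the first 3 regions stood above those of the last 3. The striatum was lower by a log2 difference of -0.29 (SE 0.0815, limma adjusted p 0.0163), opposite in sign to Pdgfrb, and the prefrontal cortex higher by 0.32 (SE 0.0815, limma adjusted p 0.0236). Without the prefrontal cortex the striatal difference was -0.24 (adjusted p 0.0512).

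The barrier transporters differed from each other as well. Slco1a4, encoding an organic anion transporter of the brain endothelium (chromosome 6, 141805438 to 141856284), read 0.35 and 0.33 in the striatum, 0.18 and 0.15 in the olfactory bulb, and 0.19 and -0.12 in the prefrontal cortex. It read -0.10 and -0.25 in the hippocampus, -0.34 and -0.27 in the hypothalamus, and -0.38 and -0.57 in the amygdala. The striatum arrays stood highest and the amygdala arrays lowest, without overlap. It was higher in the striatum by 0.49 (SE 0.084, limma adjusted p 0.00173) and in the olfactory bulb by 0.28 (limma adjusted p 0.0264), and lower in the amygdala (-0.49, limma adjusted p 0.00462) and the hypothalamus (-0.29, limma adjusted p 0.0412). The olfactory bulb call was lost under median scaling (0.13, adjusted p 0.287) and without the amygdala (0.19, adjusted p 0.107), the hippocampus (0.27, adjusted p 0.0524) or the hypothalamus (0.24, adjusted p 0.0596). The amygdalar difference was -0.54 without the array labelled amygdala WT (limma adjusted p 0.0191), and the call was lost under median scaling (-0.22, adjusted p 0.0871). The hypothalamic call was lost under median scaling (-0.20), with dim probes kept (adjusted p 0.0501), without the array labelled amygdala WT (adjusted p 0.054), and without the olfactory bulb, the striatum or the hippocampus (-0.24, -0.20 and -0.33).

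Abcb1a, encoding P-glycoprotein, the drug efflux pump of the barrier (chromosome 5, 8567091 to 8748575), was highest in the olfactory bulb. Its WT and KO arrays read -1.82 and -1.88 there, -2.34 and -2.19 in the prefrontal cortex, and -2.31 and -2.61 in the hippocampus. They read -2.96 and -2.32 in the striatum, -2.87 and -2.51 in the hypothalamus, and -2.69 and -2.80 in the amygdala. The olfactory bulb arrays stood above all others, and the other 5 regions overlapped their neighbours. The olfactory bulb difference was 0.71 (SE 0.169, limma adjusted p 0.0113), and the striatal difference of -0.24 did not pass the test (adjusted p 0.247). With normexp they were 0.36 (limma adjusted p 0.00717) and 0.35 (limma adjusted p 0.00433).

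**Figure D2:**
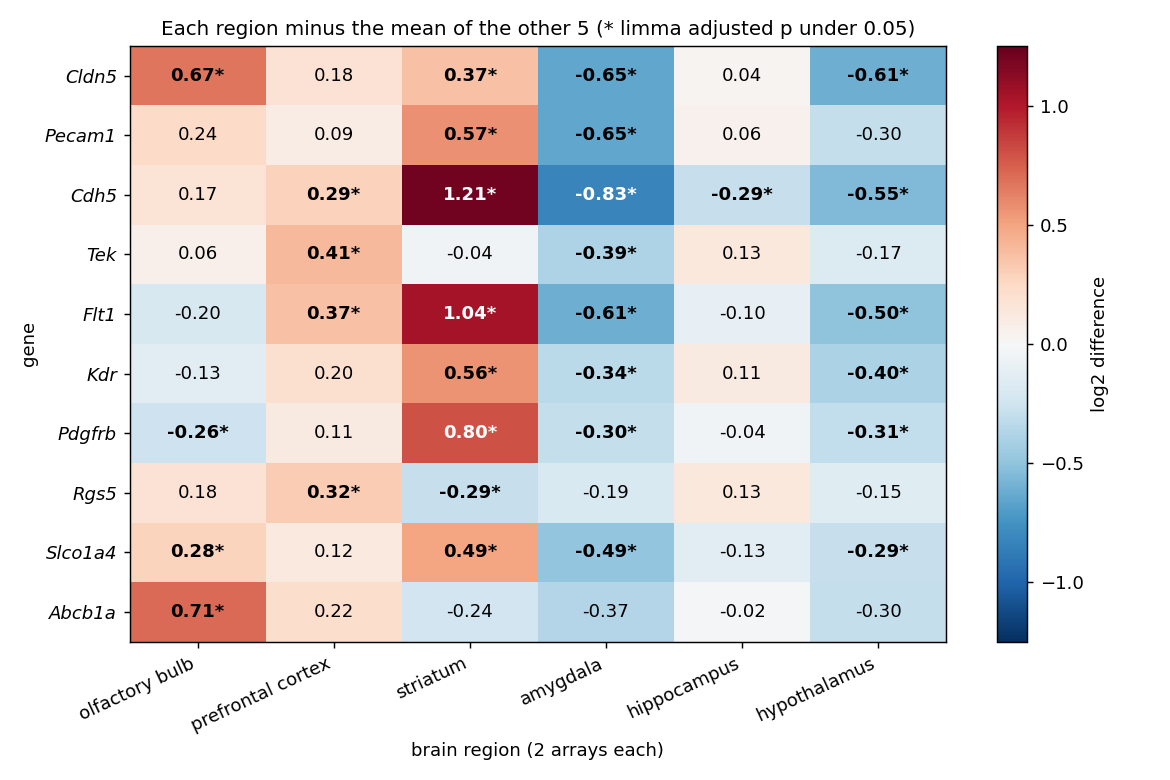
Log2 difference of each region from the mean of the other 5 (columns) for the 10 genes (rows), with red for higher, blue for lower and an asterisk where the limma adjusted p was under 0.05. The striatum column runs from 1.21 for Cdh5 to -0.29 for Rgs5, and the amygdala column is below 0 for all 10 genes.

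Across the 10 genes the median striatal difference was 0.53, against 0.089 over all genes tested. With normexp the 2 medians were 0.50 and 0.44. In the amygdala the median was -0.44 against -0.15, with 31.8% of all genes called lower and 16.3% higher, and 8 of the 10 genes were also called lower without the array labelled amygdala WT. Under median scaling 3 of the 10 were called lower in the amygdala. On that scale the all-gene median there went from -0.15 to 0.12, higher genes made up 66.8% of all calls in place of 33.8%, and the median of the 10 genes was -0.17. In the hypothalamus the median was -0.31 against -0.093, where 17.9% of all genes were called lower and 12.2% higher. The count of 6 genes lower there became 3 under median scaling, with 55.6% of all calls higher in place of 40.5%, and 2 without the striatum. The amygdala and hypothalamus calls are not independent. The array labelled amygdala WT was about as close to the hypothalamus WT array as the 2 hypothalamus arrays were to each other.

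In the olfactory bulb 25.1% of all genes were called higher and 26.5% lower, and the median of the 10 genes was 0.17 against 0.037. Leaving out the striatum gave 5 genes higher and 0 lower there, and leaving out the hypothalamus gave 3 lower. In the prefrontal cortex 19.4% of all genes were called higher and 14.4% lower, with a median of 0.21 for the 10 genes against 0.016, and 2 of the 4 calls were left without the amygdala. In the hippocampus, where 23.8% were called higher and 12.7% lower, the median was 0.007 against 0.09. The only call there was Cdh5 (-0.29, limma adjusted p 0.0265), and it was lost without the olfactory bulb (-0.27), the prefrontal cortex (-0.24) or the striatum (-0.047), or with both probes averaged (-0.20, adjusted p 0.0591). With median scaling the all-gene median went from 0.037 to -0.12 in the olfactory bulb and from 0.09 to -0.068 in the hippocampus. Higher genes then made up 33.9% of all calls in place of 48.6%, and 41.2% in place of 65.2%, and 67.3% in place of 57.3% in the prefrontal cortex. With normexp the all-gene median in the striatum went from 0.089 to 0.44, and higher genes made up 74.8% of all calls in place of 56.2%. The median of the 10 genes there was 0.50 on that scale, close to that of all genes. Tek and Abcb1a were then called higher in the striatum too, as were 15285 of all genes. With a required log2 difference of at least 1, Cdh5 and Flt1 alone kept a call, both in the striatum.

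The order of regions recurred across the genes. The striatum ranked highest for 6 of the 10, the olfactory bulb for 2 (Cldn5 and Abcb1a) and the prefrontal cortex for 2 (Tek and Rgs5). The amygdala ranked lowest for 7, the hypothalamus for 2 (Kdr and Pdgfrb) and the striatum for 1. These orders rank the mean of each region's 2 arrays, the array labelled amygdala WT included. On the array labelled amygdala KO alone, the 7 still read below the mean of every other region. Kdr (-0.84) and Pdgfrb (0.95) did so too, against hypothalamic means of -0.71 and 1.13. Of the 50 steps between neighbouring regions in these orders, the arrays overlapped in 27. Correlations over the 12 arrays, which share slides and scaling, were above 0 for 40 of the 45 pairs, with a median r of 0.61. The closest pair was Cdh5 and Flt1, at 0.948, and the most opposed pair was the pericyte genes Pdgfrb and Rgs5, at -0.304. The named genes whose profile was closest to the mean of the 10 over the 12 arrays were Osbpl3 (r = 0.971), Haus6 (0.961), Esrra (0.957), Cks2 (0.955), Ankrd33b (0.953), Vil1 (0.946), Asb11 (0.946), Inppl1 (0.945), Pacsin3 (0.942) and Tgfbr3 (0.938). Among 11327 genes ranked in this way, Slco1a4 stood at rank 6, Cdh5 at 24, Flt1 at 82 and Cldn5 at 90, whereas Tek stood at 2776, Abcb1a at 3546 and Rgs5 at 4845. The mean includes each of the 10 genes itself, so their own ranks are not comparable with those of other genes.

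**Figure D3:**
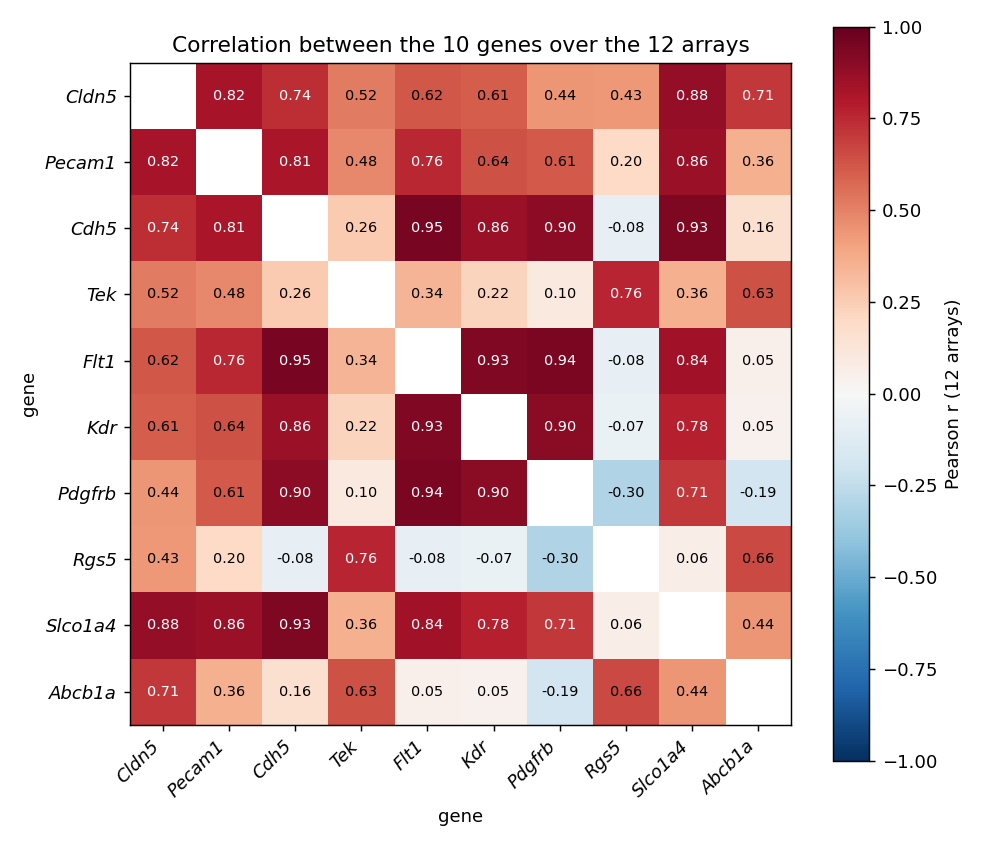
Pearson r over the 12 arrays for each pair of the 10 genes (both axes list the genes), with red above 0 and blue below. Cdh5, Flt1, Kdr, Pdgfrb and Slco1a4 form a block of high values, up to 0.948, and the rows of Rgs5 and Abcb1a hold the pairs below 0.

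Lists of related vascular genes were set beside the 10 genes. Their counts are read against the shares of all genes given for each region above, in the striatum 37.1% higher and 28.9% lower. Of 23 other endothelial genes tested, 18 rose and 2 fell in the striatum, with a median difference of 0.68. Examples are Robo4, a receptor of quiescent endothelium (1.20, SE 0.091, limma adjusted p 4.79e-05), Esam, an endothelial adhesion molecule (1.14, SE 0.119, limma adjusted p 0.000178), Emcn, an endothelial sialomucin (1.03, SE 0.123, limma adjusted p 0.000332), and Ly6a (0.95, SE 0.0988, limma adjusted p 0.00017). In the amygdala 17 of the 23 fell and 1 rose, against 14 and 0 without the array labelled amygdala WT, where 26.8% of all genes were called lower and 13.6% higher. In the hypothalamus 12 fell and 1 rose. The largest amygdalar falls were those of Sox17, an endothelial transcription factor (-0.98, and -0.91 without that array), and Cd34, a sialomucin of small vessels (-0.95, and -0.83 without it). Both also fell in the hypothalamus (-0.93 and -0.94). In the prefrontal cortex 8 rose and 0 fell, led by Cd34 (2.28, SE 0.0882, limma adjusted p 5.39e-05) and Sox17 (1.14, SE 0.103, limma adjusted p 0.000549). In the olfactory bulb 14 of the 23 fell, among them Egfl7, a matrix factor secreted by endothelium (-1.55, SE 0.0788, limma adjusted p 1.76e-05), and 4 rose, with a median of -0.32.

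Of 12 other pericyte genes, 8 rose and 0 fell in the striatum, with a median of 0.50. They included Art3 (1.34, SE 0.105, limma adjusted p 5.35e-05), Higd1b (1.06, SE 0.115, limma adjusted p 0.000201), Mcam (1.02, SE 0.17, limma adjusted p 0.00152) and Notch3, the Notch receptor of mural cells (0.89, SE 0.116, limma adjusted p 0.000483). Art3 fell in the amygdala and hypothalamus (-0.84 and -0.67), with an amygdalar difference of -0.72 without the array labelled amygdala WT. Rgs5 was thus the gene of the pericyte markers tested here, 14 in all, that was called lower in the striatum. Of 8 smooth muscle genes, 4 rose in the striatum, against 37.1% of all genes, led by Tagln (1.74, SE 0.128, limma adjusted p 4.26e-05). Mylk, encoding myosin light chain kinase, fell (-2.23, SE 0.165, limma adjusted p 4.41e-05).

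The transporter and junction lists were mixed in the striatum, and most of the Wnt list rose. Of all genes, 37.1% were called higher there and 28.9% lower. Of 18 barrier transporter genes, 6 rose and 7 fell in the striatum, with a median of 0.011: Abcc4, an organic anion efflux pump, rose (0.80, SE 0.0877, limma adjusted p 0.000212), and Bsg, a chaperone of monocarboxylate transporters, fell (-1.56, SE 0.0926, limma adjusted p 2.09e-05). Of 14 junction genes, 2 rose and 6 fell. Among the falls were Ctnnd1, encoding p120-catenin (-1.59, SE 0.135, limma adjusted p 7.29e-05, above background on 10 arrays), and Tjp1, encoding ZO-1 (-0.86, SE 0.15, limma adjusted p 0.00192). Of 14 barrier Wnt genes, 10 rose and 3 fell. Adgra2, the GPR124 coreceptor for Wnt7, rose in the striatum (1.13, SE 0.116, limma adjusted p 0.000163), and so did Lef1, a transcription factor of the pathway (1.09, SE 0.102, limma adjusted p 0.000109), whereas the ligand Wnt7a, named after its value was seen, fell (-0.87, SE 0.0931, limma adjusted p 0.000195). In the amygdala 7 of the 14 Wnt genes fell and 1 rose, with Sox17, which is on this list too, at -0.98, Lef1 at -0.87 and Adgra2 at -0.83. Without the array labelled amygdala WT, 5 fell and 2 rose, with these genes at -0.91, -0.83 and -0.86.

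A list of vascular ligands, not all of them for the receptors above, was mixed in the striatum. Of 11 tested, 3 were higher and 3 lower, against 37.1% and 28.9% of all genes. Vegfb, a ligand of VEGFR1, rose (1.69, SE 0.105, limma adjusted p 2.42e-05), as did Pgf, another ligand of that receptor, named after its value was seen (0.76, SE 0.129, limma adjusted p 0.00172). Vegfc fell (-0.94, SE 0.106, limma adjusted p 0.000244), and so did Angpt1, the ligand of Tie2 (-0.87, SE 0.236, limma adjusted p 0.0147, above background on 8 arrays). Of 7 receptor partners 3 fell and 0 rose, with the VEGF coreceptor Nrp1 at -1.91 (SE 0.189, limma adjusted p 0.000141, above background on 11 arrays) and Pdgfra, a receptor of oligodendrocyte precursors and fibroblasts, at -0.98 (SE 0.0698, limma adjusted p 3.79e-05). Of 6 leukocyte adhesion genes 3 fell and 0 rose, among them Vcam1 (-0.33, SE 0.0715, limma adjusted p 0.0054), and Icam1, Sele, Lcn2 and Cxcl1 reached no array's threshold for a signal well above background.

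**Figure D4:**
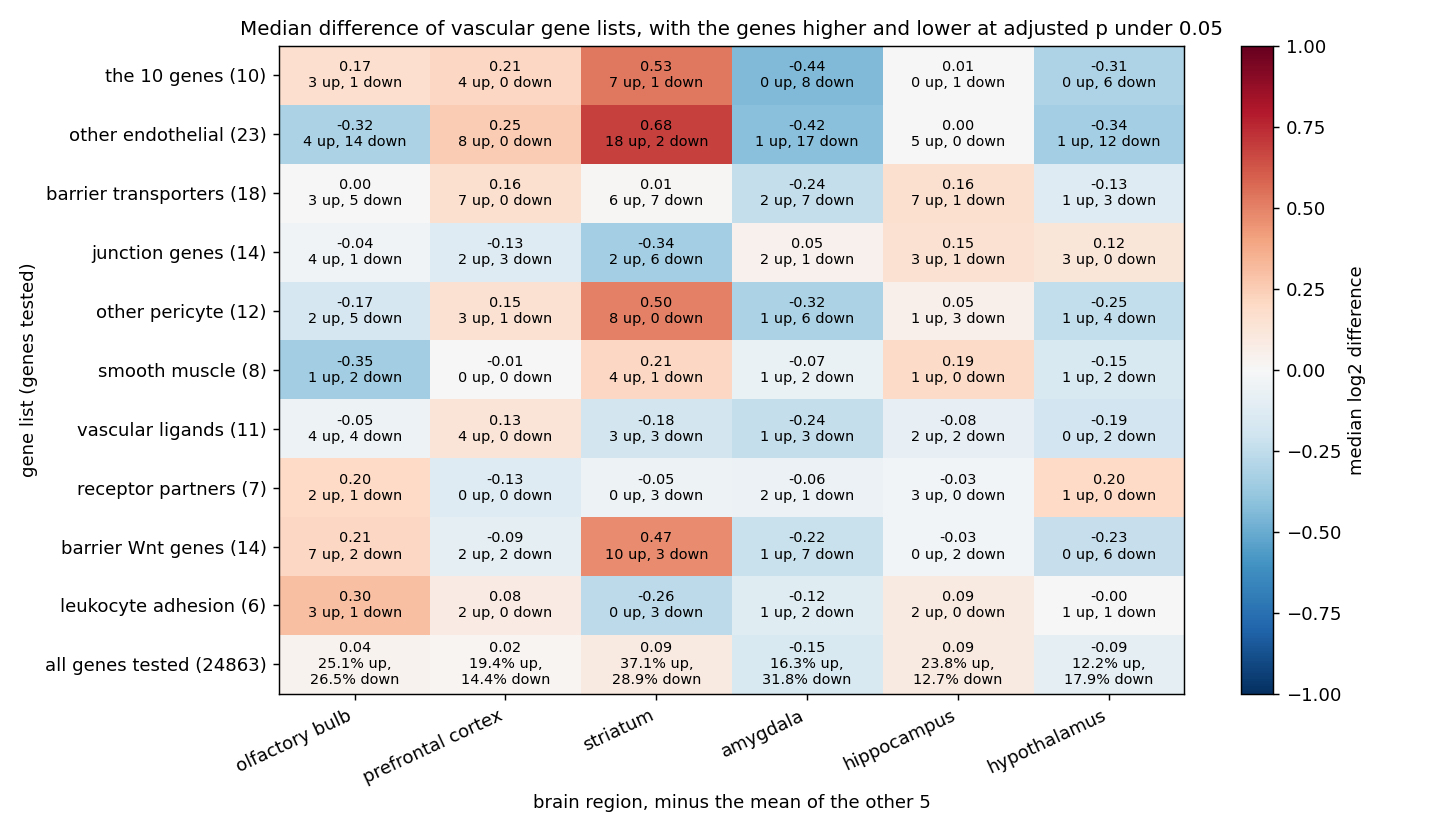
Median log2 difference from the other 5 regions (columns) for the 10 genes, 9 related gene lists and all genes tested (rows, with the number tested), with the count called higher (up) and lower (down) in each cell. In the striatum the 10 genes, the other endothelial genes and the other pericyte genes have medians of 0.53, 0.68 and 0.50, while the junction genes lie at -0.34.

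Markers of other cells also differed between the regions, and their part in these results was not tested. Their counts are read against the same shares of all genes. In the striatum 11 of 12 meningeal fibroblast markers fell (median -1.43), 6 of 7 perivascular macrophage markers fell (median -0.89), and 6 of 7 oligodendrocyte markers rose (median 0.88). The summed linear level of the oligodendrocyte markers was 587 and 432 on the striatum arrays and 93.6 to 271 on the others. In the olfactory bulb 10 of 12 meningeal and 6 of 7 macrophage markers rose (medians 1.21 and 1.04). Of 4 red blood cell genes tested, 3 fell in the amygdala (median -0.86), against 0 by limma without the array labelled amygdala WT (median -0.78, 1 with an unadjusted p under 0.05). Their summed level lay between 1.97 and 10.5 on the WT arrays and between 2.31 and 5.78 on the KO arrays after perfusion, with 3 of 5 measured genes well above background on all 12 arrays. The markers of each region followed the labels elsewhere: 8 of 8 striatal markers were higher in the striatum and 7 of 7 olfactory bulb markers in the olfactory bulb.

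The comparison of KO with WT mice asked whether the vascular genes differed without interleukin 18. None of the 10 genes passed the test over the 6 regions (limma, region as a term, adjusted p under 0.05), and 10 of all 24863 genes did, 0.0402%. At an unadjusted p under 0.05 there were 4 of the 10 (Cdh5, Kdr and Pdgfrb lower, Tek higher), against 23.2% of all genes. The repeated unit was the region, with 1 array of each genotype in it. Should the same mice have given several pools, the p-values overstate the evidence for a genotype difference.

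Kdr had the largest difference, a mean log2 KO minus WT of -0.28 (SE 0.0637, limma adjusted p 0.104, lower in 6 of 6 regions). Its differences were -0.30 in the olfactory bulb, -0.36 in the prefrontal cortex, -0.26 in the striatum, -0.36 in the amygdala, -0.40 in the hippocampus and -0.013 in the hypothalamus. Cdh5 came to -0.25 (SE 0.0578, limma adjusted p 0.105) and was also lower in 6 of 6 regions, from -0.40 in the striatum and amygdala to -0.15 in the olfactory bulb. Its second probe was lower in 3 of 6 regions, with a mean of -0.0012. Pdgfrb was lower in 6 of 6 regions, by -0.36 in the amygdala to -0.023 in the prefrontal cortex, with a mean of -0.18 (SE 0.0602, limma adjusted p 0.152). For each of these 3 genes the exact sign-flip permutation test over the 6 regions gave a two-sided p of 0.0312, the smallest that 6 regions can give, unadjusted over the 10 genes. Of all genes, 8.66% were lower in 6 of 6 regions.

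Tek went the other way, higher in 5 of 6 regions with a mean of 0.24 (SE 0.076, limma adjusted p 0.145), from -0.047 in the hippocampus to 0.44 in the hypothalamus. Flt1 was lower in 5 of 6 regions (-0.17, SE 0.0711, limma adjusted p 0.219) and higher in the hypothalamus, by 0.14. Slco1a4 was lower in 5 of 6 regions (-0.10, SE 0.0626, limma adjusted p 0.354). Cldn5 (-0.047, SE 0.0682), Pecam1 (0.079, SE 0.0857), Rgs5 (0.10, SE 0.0608) and Abcb1a (0.11, SE 0.126) varied in sign between the regions. The median of the 10 genes was -0.075, against -0.022 over all genes. In the authors' deposited table of KO over WT ratios, tested with limma over the 6 regions, Kdr (-0.29, limma adjusted p 0.0429) and Cdh5 (-0.26, limma adjusted p 0.044) passed the threshold. That fit called 355 genes higher and 371 lower among genes with a ratio in all 6 regions. The number of such genes is not given, so these counts cannot be read as a share. The table had no values for Pecam1 and lacked the striatum for Tek and Abcb1a, so these 3 genes were not tested on it. Its ratios come from the same arrays and, where present for the 10 genes, equalled the differences computed here to within 0.0114. The calls for Kdr and Cdh5 are therefore not a separate measurement.

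**Figure D5:**
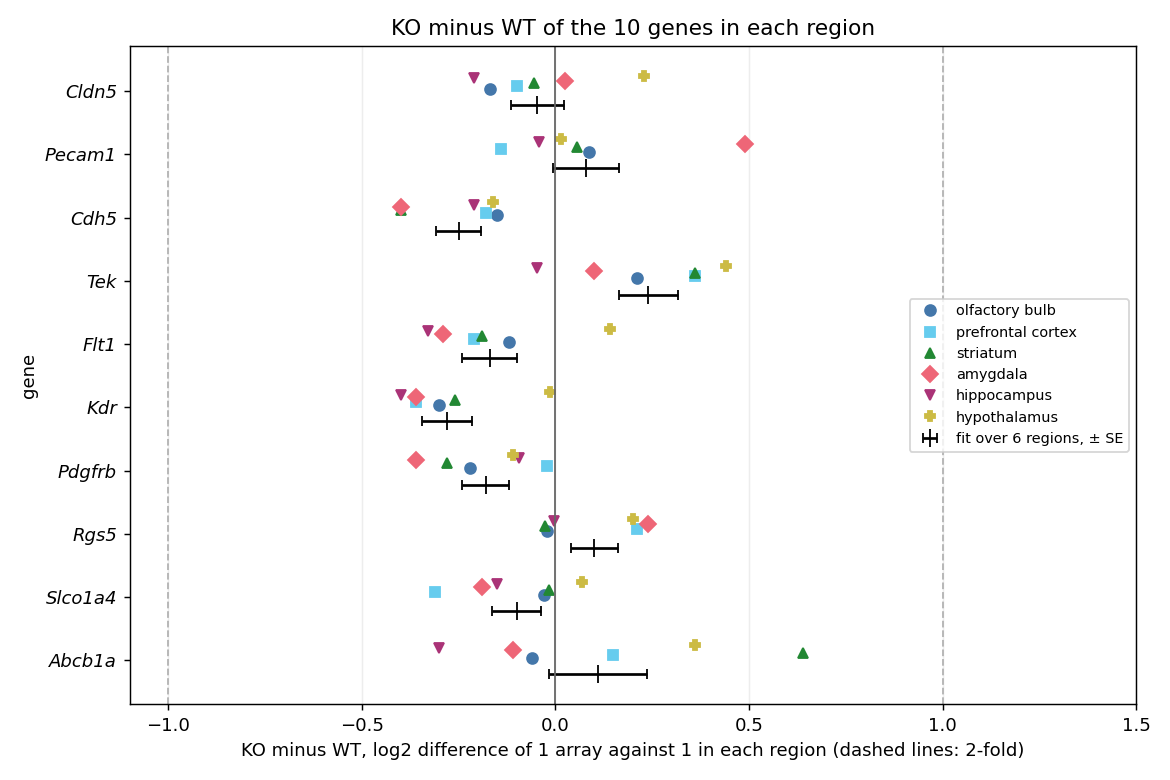
Log2 KO minus WT (x axis) for each of the 10 genes (y axis), with a coloured symbol for each region's pair of arrays and a black bar for the fitted mean over the 6 regions ± SE. Cdh5, Kdr and Pdgfrb lie below 0 in all 6 regions, and no symbol reaches the dashed 2-fold lines.

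Within a region the KO and WT arrays could be set side by side but not tested, with 1 array each. None of the 10 genes differed 2-fold in any region, where the share of all detected genes that did ran from 0.924% in the olfactory bulb to 6.85% in the amygdala (0.987% in the hypothalamus, 1.56% in the striatum, 1.75% in the hippocampus and 4.34% in the prefrontal cortex). The error of such a difference that the scanner software's spot errors give was 0.204 to 0.352 for these genes, and many of the differences were no larger. The widest differences were for Abcb1a in the striatum (0.64, scanner error 0.297) and Pecam1 in the amygdala (0.49, scanner error 0.327). In the hippocampus all 10 genes read lower on the KO array, from -0.40 to -0.0024 with a median of -0.18, against 0.012 over all genes. In the hypothalamus 7 of the 10 read higher, with a median of 0.11 against -0.00054.

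The array labelled amygdala WT was close to the hypothalamus WT array for these genes as well: the median absolute difference was 0.121, with Pecam1 lower by -0.54 on the log2 scale. The array labelled amygdala KO lay below the hypothalamus KO array for all 10 genes, by a median of -0.21. Without the array labelled amygdala WT the fitted KO minus WT was -0.26 for Kdr, -0.22 for Cdh5, -0.15 for Pdgfrb, 0.26 for Tek and -0.0042 for Pecam1. None of the 10 genes passed the threshold in that fit.

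None of the genes in the related lists passed the KO against WT test. The smallest p among the other endothelial genes was that of Adgrl4, an adhesion receptor of angiogenic endothelium (0.27, SE 0.0553, limma adjusted p 0.0995), followed by Podxl (0.20, SE 0.0567, limma adjusted p 0.125). Among the Wnt genes Lrp6, a Wnt coreceptor, came to -0.34 (SE 0.0807, limma adjusted p 0.107) and Lef1 to -0.31 (SE 0.0757, limma adjusted p 0.108). Among the transporters Bsg came to 0.39 (SE 0.069, limma adjusted p 0.0925) and among the pericyte genes Notch3 to -0.20 (SE 0.0861, limma adjusted p 0.221). Of the other endothelial genes 3 of 23 had an unadjusted p under 0.05 and of the pericyte genes 0 of 12, against 23.2% of all genes. Of the marker lists, 7 of 11 microglia markers had an unadjusted p under 0.05 (median 0.18, 0 called), and their summed level was higher on the KO array in 6 of 6 regions, from 34.8 to 56.5 on the WT and from 36.6 to 58.5 on the KO arrays. For the meningeal fibroblast markers 0 of 12 differences were above 0 (median -0.37, 4 with an unadjusted p under 0.05, 0 called). The part of these markers in the vascular values was not tested.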

How the data were processed

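Total RNA (400 ng) was labelled with Cy3 and hybridised to 1-colour Agilent arrays. Per the file headers, the authors' scanner files were written by Agilent Feature Extraction 9.5.3.1. The deposited intensity is its background-corrected processed signal, with flags for spots well above background. The authors also deposited KO over WT ratios for each region on a linear scale, per the labels' pairing; these were taken to log2 and equalled the differences computed here to within 0.0114 for the 9 of the 10 genes with values in that table (none for Pecam1, and no striatum for Tek and Abcb1a).

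Control and outlier spots were left out, spots of a probe averaged, and log2 signals centred on each array's 75th percentile. Accessions were matched to RefSeq (GRCm38.p6): 22951 of 41174 probes (55.7%) were named. Each gene was read by its probe of highest mean, and cross-hybridisation between close relatives (such as Abcb1a and Abcb1b) was not tested. Probes above background on at least 6 of 12 arrays were fitted with limma 3.58.1 in R 4.3.3 (region and genotype as terms, 5 residual degrees of freedom). No saturated spots were found, and 60.84% to 81.3% of spots were above background. The number of arrays limits the precision. With these terms, the p-values rest on how far the KO minus WT differences varied between regions. The arrays of a region shared a slide, so spread between slides falls in the region terms. The p-values of regional differences do not measure that spread. The fit was also run on simulated data with independent errors. Those data held no shared slides or mice, so that run cannot speak to these limits.

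The 10 genes, the lists and the tests were chosen with earlier results of these data known. All 10 genes are named. Of each other list at most 4 genes are named in each comparison, from those with the largest called difference, or, where none was called, up to 2 of smallest p. Alike genes are the 10 named genes of highest Pearson r among those above background on all arrays with an SD of at least 0.15. The pairing of genotypes by region comes from the labels.

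Alternatives were median and quantile scaling, scaling on probes detected on all arrays, normexp (offset 50) on spot medians (added after seeing the data, as was the preceding scaling), other probe and background rules, a trended robust variance, leaving out regions or the array labelled amygdala WT, a fit without the region block, a required log2 difference of 1, and the authors' ratios. Normexp on mean signals was not run, since spot medians were used in their place.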

Additional observations from a re-analysis of the deposited data

Results flagged for a closer look

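Dixon's test on the 6 regional KO minus WT differences of each of the 10 genes at the 95% critical value singled out 2 values; chance passes about 1 in 20 such groups. For Pecam1 the amygdala stood apart at 0.49, while the other 5 regions lay between -0.14 and 0.088. The array labelled amygdala WT, which resembled the hypothalamus WT array, held the lowest Pecam1 level of the 12 (-4.41), and the Pecam1 spots on an array varied by an SD of 0.0599 to 0.302. For Kdr the hypothalamus stood apart at -0.013, while the other 5 regions lay between -0.40 and -0.26. The Kdr spots on an array varied by an SD of 0.0614 to 0.148. Neither difference between regions was tested, with 1 array of each genotype in a region.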

How the results depend on the processing

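For KO minus WT, 0 of the 10 genes were called under each limma setting except the authors' deposited ratios (2 lower, Kdr and Cdh5). Genes called higher and lower over the whole table, 4 and 6, became 203 and 496 with normexp, 71 and 99 with a trended robust variance, 9 and 11 with probes above background on all 12 arrays, 6 and 10 with quantile normalization, and 355 and 371 in the authors' deposited ratios. The fit of the authors' ratios held only genes with a ratio in all 6 regions. Without a filter 1 was higher. Without the replicate block (the pairing of WT and KO by region) they were 0 and 2, with 0 of the 10 genes called. Leaving out 1 region at a time gave 0 higher and 1 to 6 lower, and leaving out the array labelled amygdala WT gave 0 and 1. The sign of KO minus WT turned for Cldn5 under median scaling (0.0096), for Pecam1 with normexp (-0.058) and without the amygdala or the array labelled amygdala WT (-0.0042, with a range of -0.0042 to 0.12 over the regions left out), and for Abcb1a with normexp (-0.048); none of these was called. In the striatum Tek turned to 0.51 with normexp and to 0.04 without the prefrontal cortex (range -0.13 to 0.04 over the regions left out), and Abcb1a to 0.35 with normexp.

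Of the regional counts, median scaling gave 3 genes lower in the olfactory bulb in place of 1, 3 in the amygdala in place of 8, 2 in the hippocampus in place of 1 and 3 in the hypothalamus in place of 6. Quantile normalization gave 0 lower in the olfactory bulb, and averaging probes gave 0 lower in the hippocampus. Requiring a log2 difference of 1 gave 2 higher and 0 lower in the striatum and 0 calls in every other region. Leaving out regions gave ranges of 2 to 5 higher and 0 to 3 lower in the olfactory bulb, 2 to 6 higher in the prefrontal cortex, 6 to 7 higher and 0 to 1 lower in the striatum, 7 to 8 lower in the amygdala, 0 to 1 lower in the hippocampus and 2 to 7 lower in the hypothalamus. Over all settings, differences called for a gene kept their call 390 times of 434 and their sign 434 times, and differences not called turned sign 36 times of 583.

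Of the background counts, normexp gave 15285 genes higher in the striatum, 12130 lower in the amygdala and 8594 lower in the hypothalamus. Median scaling gave 7669 higher and 3813 lower in the amygdala, 3489 and 4976 in the hippocampus and 2579 lower in the hypothalamus. Quantile normalization gave 5011 lower in the amygdala, and dropping the filter gave 7659 lower in the hypothalamus. Without the olfactory bulb the prefrontal cortex had 3184 higher and 2305 lower and the hypothalamus 1994 higher, and without the amygdala the hypothalamus had 4589 higher and 7350 lower. Requiring a log2 difference of 1 left 422 to 3249 genes in a direction and region. The causes of these changes were not tested. The striatum arrays, with the lowest signal, had the fewest spots above background, so dim probes are measured least well there.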

Other observations

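Other genes of the vascular lists also passed the test in the other regions, and those named here were chosen after their values were seen. Of the 18 barrier transporter genes, 7 rose and 0 fell in the prefrontal cortex, where 19.4% of all genes were called higher. They included Car4, a carbonic anhydrase on the capillary surface (0.72, SE 0.142, limma adjusted p 0.00923), Tfrc, the transferrin receptor (0.52, SE 0.0811, limma adjusted p 0.00375), Abcg2, a drug efflux pump (0.52, SE 0.0787, limma adjusted p 0.00326), and Slco1c1, a thyroid hormone transporter (0.45, SE 0.0934, limma adjusted p 0.0108). In the hippocampus 7 of the 18 rose and 1 fell, against 23.8% of all genes called higher, led by Slc38a5, a glutamine transporter (0.87, SE 0.108, limma adjusted p 0.00151), and Car4 (0.75, SE 0.142, limma adjusted p 0.00744). Slco1a4 and Abcb1a passed the test in neither region. The junction gene Ocln, encoding occludin, was higher in the hippocampus (1.23, SE 0.167, limma adjusted p 0.00214, above background on 11 arrays) while Cldn5 was not called there (0.035, SE 0.0915, adjusted p 0.787).

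In the olfactory bulb 7 of 14 barrier Wnt genes rose and 2 fell, against 25.1% of all genes called higher and 26.5% lower. The ligand Wnt7a rose there (1.28, SE 0.0931, limma adjusted p 6.79e-05), as did the Wnt7 coreceptor Adgra2 (1.12, SE 0.116, limma adjusted p 0.00031), and Wnt7b fell (-0.87, SE 0.143, limma adjusted p 0.00226). Vegfd, a ligand of the VEGF receptor family, was lower in the olfactory bulb (-1.77, SE 0.118, limma adjusted p 4.83e-05) and higher in the prefrontal cortex (1.34, SE 0.118, limma adjusted p 0.000503). In the prefrontal cortex Apln, the ligand of the apelin receptor, was higher too (0.88, SE 0.113, limma adjusted p 0.00181).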
